A study of Homo sapiens with 2 samples.

Results

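MTOR, RPTOR, RICTOR, MLST8, RHEB, TSC1, TSC2, DDIT4, EIF4EBP1 and RPS6KB1, the genes of the mTOR complexes, their upstream switch and their translation effectors, were read by 25 probe sets out of 54613 on the arrays. These 10 genes, of 19775 with a probe set of their own, were taken as a named list with aliases accepted, and every probe set that the platform annotation assigned to 1 of them alone was kept. No probe set of these genes was shared with another gene. The expression profiles compared AGS.W with AGS.veh, both stable lines of AGS, a human gastric adenocarcinoma cell line. AGS.W carried a lentiviral vector with the whole coding region of WTX, also called AMER1, and AGS.veh carried the control vector, and cells infected with such vectors were selected with puromycin. A single Affymetrix U133 Plus 2.0 array was run per line, so the values below set 1 culture against 1 other and come with neither a p-value nor an FDR. Whether a line was a pool or a single clone is not given in the sources used here.

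mTOR is a kinase that couples nutrients and growth factors to protein synthesis, and it works in a pair of complexes. In mTOR complex 1 it is joined by RPTOR, which recruits substrates, and in mTOR complex 2 by RICTOR, while MLST8 sits in both. The small GTPase RHEB switches on mTOR complex 1, the TSC1 and TSC2 proteins together switch RHEB off, and DDIT4, also called REDD1, restrains mTOR complex 1 through the TSC proteins under hypoxia and other stress. Active mTOR complex 1 phosphorylates the S6 kinase encoded by RPS6KB1 and the translation repressor 4E-BP1 encoded by EIF4EBP1, which raises translation. These controls act largely by phosphorylation and on lysosomes, neither of which an RNA array reads. The study asked how WTX relates to the PI3K, AKT and mTOR pathway in gastric cancer.

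Values are log2 signals as processed by the authors, in which 1 unit is a 2-fold change, and differences are AGS.W minus AGS.veh. The median of all probe sets was 4.02 on the AGS.W array and 4.03 on the AGS.veh array, and signal below it may be background. RNA came from whole cultures, in which fewer cells of a kind and less RNA per cell cannot be told apart. WTX itself was read by 1 probe set, at 3.70 in AGS.W and 3.86 in AGS.veh, below both medians. Whether this probe set lies in the coding region of the vector is not known here, and it is therefore no check of the labels. A protocol field of the labels names brain tissue as the source, whereas all other fields name AGS cells. Among 14 measured marker genes of brain cells, 8 reached the median on at least 1 array, as 12811 of all 19775 genes did. The median difference of the 8 was 0.06. The neuronal enzyme gene GAD1 had 7.06 in AGS.W against 7.11 in AGS.veh, whereas the myelin gene MBP had 6.10 in AGS.W and 6.19 in AGS.veh, all above the medians. The synaptic gene SNAP25, the only one 2-fold apart, had 5.15 in AGS.W and 3.57 in AGS.veh. GFAP, the defining astrocyte gene, did not reach the median, at 3.44 in AGS.W and 2.97 in AGS.veh. Of 10 epithelial markers 7 reached it, with a median difference of -0.31. Among these, 3 were higher and 4 lower in AGS.W. The lowest difference was that of KRT7, at 8.53 in AGS.W and 9.42 in AGS.veh on its brightest probe set. KRT18 had 10.9 in AGS.W against 11.2 in AGS.veh, whereas EPCAM, with the highest difference, had 6.88 in AGS.W and 5.96 in AGS.veh. CDH1 did not reach it, at 2.72 in AGS.W and 2.50 in AGS.veh. The part of these marker differences in the results was not tested.

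Of the 25 probe sets, 15 were higher and 9 lower in AGS.W and 1 had equal values, with a median difference of 0.10, against 0.00 over all probe sets. Of all 54613 probe sets, 24298 (44.5%) were higher in AGS.W, 23415 were lower and 6900 had equal values. A single probe set was at least 2-fold apart, a dim one of RICTOR, where 2.19% of all probe sets were at least 2-fold apart in either direction. At 1.5-fold the count was 3 of 25, with RICTOR and DDIT4 higher and RHEB lower, where 9.14% of all probe sets passed. Differences of 21 of the 25 were smaller than 0.5. Counted as genes, each by its probe set of highest mean signal, 7 of the 10 were higher in AGS.W, 2 were lower and 1 was equal, with a median of 0.15. The 2 lower genes, TSC1 and EIF4EBP1, were so by less than 0.05, and both turned slightly higher in AGS.W after a lowess curve. Over all 12811 genes with a signal at or above the median on at least 1 array, 45.7% were higher in AGS.W and the median was -0.01. All 10 genes passed this signal filter, and none of them was 2-fold apart on that probe set, where 3.78% of the filtered genes were.

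**Figure D1:**
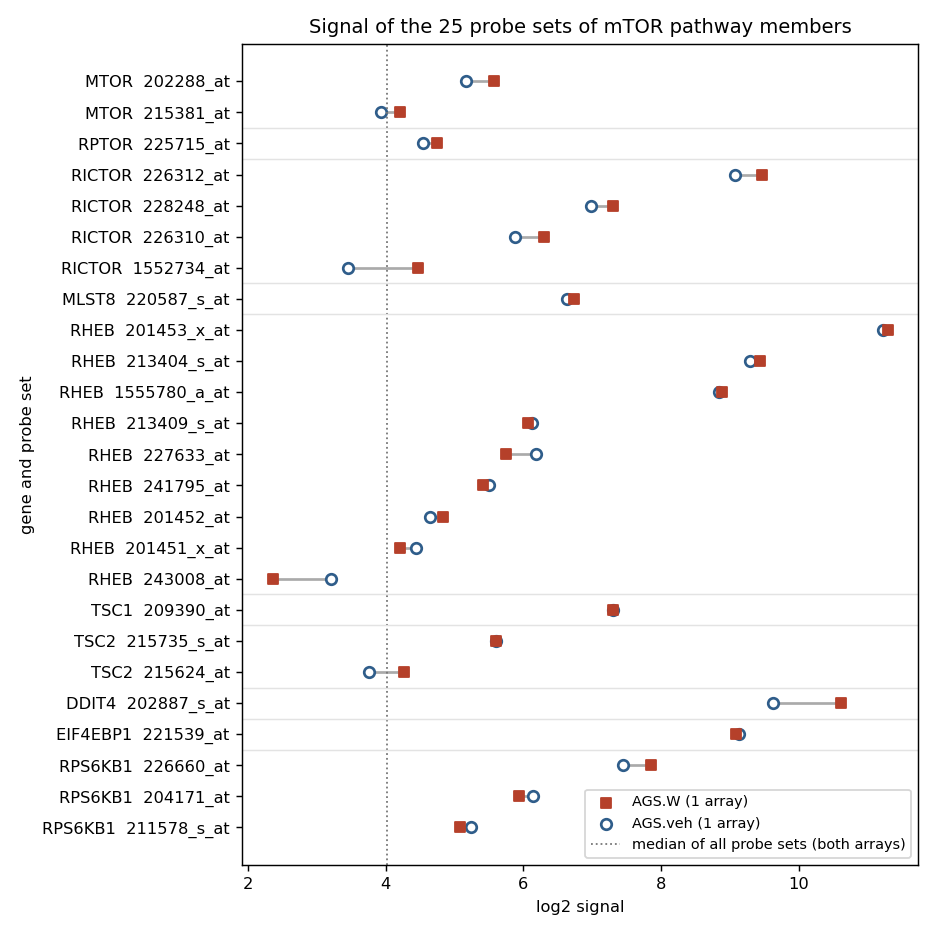
Log2 signal (horizontal axis) of each of the 25 probe sets of the 10 genes in AGS.W (squares) and AGS.veh (circles), 1 array each, with the array median as a dotted line. The widest gap among signals above the dotted line is that of DDIT4, at 10.6 in AGS.W against 9.63 in AGS.veh, while the wide gaps of RICTOR at 1552734_at and RHEB at 243008_at involve signals below it.

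DDIT4 had the largest difference of the 10 genes as read by their brightest probe sets. Its single probe set, 202887_s_at, read 10.62 in AGS.W and 9.63 in AGS.veh, far above the array medians. The difference was 0.99, or 1.99-fold, just below the 2-fold threshold of the study. Of the 12811 filtered genes, 248 had a difference at least as high, or 1.94%. Among the 518 probe sets with a mean signal between 10 and 11, the middle 95% of differences ran from -0.61 to 0.95. Quantile normalization of both arrays moved the DDIT4 difference to 1.02 and a lowess curve to 1.03, which puts it past 2-fold. Since DDIT4 has no second probe set here, its value could not be set against another reading.

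The promoter of DDIT4 is shown because this gene carried the largest difference, and that of RICTOR because all 4 of its probe sets were higher in AGS.W. MTOR and RPTOR were also higher on every probe set, but they had fewer probe sets and their promoters are not shown. Each run below is the 250 bases before the gene start from RefSeq on GRCh38.p14, 5′ to 3′ on the strand of the gene. Capitals mark the letters ACGTG, read on both strands, a form of the core of sites bound by the hypoxia factor HIF-1 and by many factors of the same family. Other forms of the core, such as GCGTG, were neither marked nor counted. DDIT4 is a known target of HIF-1.
DDIT4, chr10:72273674-72273923, plus strand: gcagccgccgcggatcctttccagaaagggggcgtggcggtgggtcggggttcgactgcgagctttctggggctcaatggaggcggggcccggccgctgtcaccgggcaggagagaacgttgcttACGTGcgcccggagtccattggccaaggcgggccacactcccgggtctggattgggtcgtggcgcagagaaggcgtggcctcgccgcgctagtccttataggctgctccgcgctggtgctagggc
RICTOR, chr5:39074400-39074649, minus strand: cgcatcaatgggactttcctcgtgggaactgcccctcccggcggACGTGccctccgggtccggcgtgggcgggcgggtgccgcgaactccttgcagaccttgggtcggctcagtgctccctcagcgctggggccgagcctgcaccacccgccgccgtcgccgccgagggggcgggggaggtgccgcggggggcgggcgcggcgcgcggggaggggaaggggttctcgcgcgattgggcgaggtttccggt
The marked letters begin 125 bases before the start in DDIT4 and 206 bases before it in RICTOR. They occur in 18.5% of 35116 promoter windows of this length, so a match is common, and it is a description of the sequence and not a site. Of the 8 genes with a promoter in the table, RHEB and TSC2 hold it as well, and MTOR, RPTOR, TSC1 and RPS6KB1 do not in these windows. The longer CACGTG, which contains ACGTG on either strand, was found in 6.34% of all windows and among these genes in TSC2 alone, in 1 of its pair of overlapping windows. TSC2 had equal signals on its brightest probe set, and RHEB had a difference of 0.07 there. Whether the letters bear on any of these differences was not tested. MLST8 and EIF4EBP1 were not matched.

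RICTOR, the scaffold that defines mTOR complex 2, was higher in AGS.W on all 4 of its probe sets. The brightest, 226312_at, had 9.47 in AGS.W and 9.08 in AGS.veh, a difference of 0.39. Probe set 228248_at had 7.31 in AGS.W against 6.99 in AGS.veh, while 226310_at had 6.29 in AGS.W and 5.88 in AGS.veh, with differences of 0.32 and 0.41. These 3 readings lay within 0.1 of each other although their signals spanned a wide range. The fourth, 1552734_at, had 4.47 in AGS.W and 3.46 in AGS.veh, a difference of 1.01 or 2.02-fold. It was the sole probe set past 2-fold, and its signal in AGS.veh lay below the array median. With that signal set to the median, the difference was 0.44, which is only the height of the AGS.W signal above that median. It therefore cannot be set against the other 3 readings. The mean over the 4 probe sets was 6.88 in AGS.W against 6.35 in AGS.veh, a difference of 0.53. In the RefSeq annotation RICTOR overlaps OSMR, the oncostatin M receptor gene, whose 3 probe sets differed by 1.80, -0.60 and -0.26, and where the probes of either gene lie was not known here.

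MTOR, the kinase itself, was higher in AGS.W on both of its probe sets. The brighter, 202288_at, had 5.57 in AGS.W and 5.16 in AGS.veh, a difference of 0.41 or 1.33-fold. The other, 215381_at, had 4.21 in AGS.W and 3.94 in AGS.veh, a difference of 0.27 with the AGS.veh signal under the median. Of the filtered genes 12.3% had a difference at least as high as that of MTOR, so a value of this size was not rare on these arrays. RPTOR, the substrate adaptor of mTOR complex 1, was read by 225715_at alone, at 4.75 in AGS.W and 4.54 in AGS.veh, a difference of 0.21 at a signal not far above the median. MLST8, shared by both complexes, was read by 220587_s_at alone, at 6.73 in AGS.W and 6.63 in AGS.veh, a difference of 0.10. The 8 probe sets of these 4 genes were all higher in AGS.W, by less than 2-fold except at 1552734_at. RICTOR holds 4 of them and MTOR 2, so they are repeated readings on the same pair of arrays and not independent. Over all probe sets 24298 (44.5%) were higher, 23415 lower and 6900 equal. The other parts and partners of the complexes did not all share this direction. Of 7 genes of mTOR complex 1, MTOR, RPTOR and MLST8 included, 4 were higher and 3 lower with a median of 0.10. DEPTOR was higher on both of its probe sets, with a difference of 0.29 on the brightest. AKT1S1, TTI1 and TELO2 were lower on every probe set, TELO2 with a difference of only -0.04 on its brightest. Of 4 genes of mTOR complex 2, which include RICTOR but leave out MTOR and MLST8, 2 were higher and 2 lower. Their median was -0.02, or -0.28 as means over probe sets. PRR5 was lower on both of its probe sets, and MAPKAP1, higher by 0.11 on its brightest, was lower on its other 3, with a mean of -0.32. RefSeq places other genes over MTOR (MTOR-AS1 and ANGPTL7 among them), MLST8 (BRICD5) and, below, TSC2 (PKD1), and whether their transcripts reach these probe sets was not tested.

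RHEB, the activator of mTOR complex 1, was read by 9 probe sets that went both ways. The 3 brightest were almost equal on both arrays. Probe set 201453_x_at had 11.3 in AGS.W and 11.2 in AGS.veh, 213404_s_at had 9.43 in AGS.W against 9.30 in AGS.veh, while 1555780_a_at had 8.89 in AGS.W and 8.84 in AGS.veh, with differences of 0.07, 0.13 and 0.05. Of the 6 dimmer ones, 201452_at was higher in AGS.W by 0.19 and the other 5 were lower. The lowest of these above the median was 227633_at, at 5.75 in AGS.W and 6.19 in AGS.veh, a difference of -0.43. Probe set 243008_at had 2.37 in AGS.W and 3.21 in AGS.veh, a difference of -0.84 with both signals below the median. The mean over all 9 was 6.47 in AGS.W against 6.61 in AGS.veh, a difference of -0.13, so the sign for RHEB depends on which readings are used. RefSeq lists 3 RHEB pseudogenes, RHEBP1, RHEBP2 and RHEBP3, and which probe sets could also bind their transcripts was not tested.

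TSC1 and TSC2, the subunits of the complex that switches RHEB off, were almost equal on their brightest probe sets. TSC1 was read by 209390_at alone, at 7.30 in AGS.W and 7.31 in AGS.veh. TSC2 had 5.60 in AGS.W and 5.60 in AGS.veh on 215735_s_at, the same value to every digit given. Such ties occurred at 6900 probe sets of the arrays, and 81.5% of these lay below the median on both, which this one did not. The other TSC2 probe set, 215624_at, had 4.26 in AGS.W and 3.75 in AGS.veh, a difference of 0.51, or 0.24 with the AGS.veh signal set to the median. TBC1D7, the remaining subunit of the TSC complex, had 6.68 in AGS.W and 7.07 in AGS.veh, a difference of -0.39.

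Of the translation effectors, EIF4EBP1 was almost equal in both lines. Its single probe set, 221539_at, had 9.09 in AGS.W and 9.13 in AGS.veh, a difference of -0.03, and RefSeq lists 2 pseudogenes of it. RPS6KB1, the S6 kinase gene, had probe sets in opposite directions. The brightest, 226660_at, had 7.85 in AGS.W and 7.44 in AGS.veh, a difference of 0.41. Probe set 204171_at had 5.93 in AGS.W against 6.14 in AGS.veh, while 211578_s_at had 5.08 in AGS.W and 5.24 in AGS.veh, with differences of -0.21 and -0.16. The mean over the 3 was 6.29 in AGS.W against 6.27 in AGS.veh, a difference of 0.02, so the higher value of RPS6KB1 rests on 1 probe set.

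**Figure D2:**
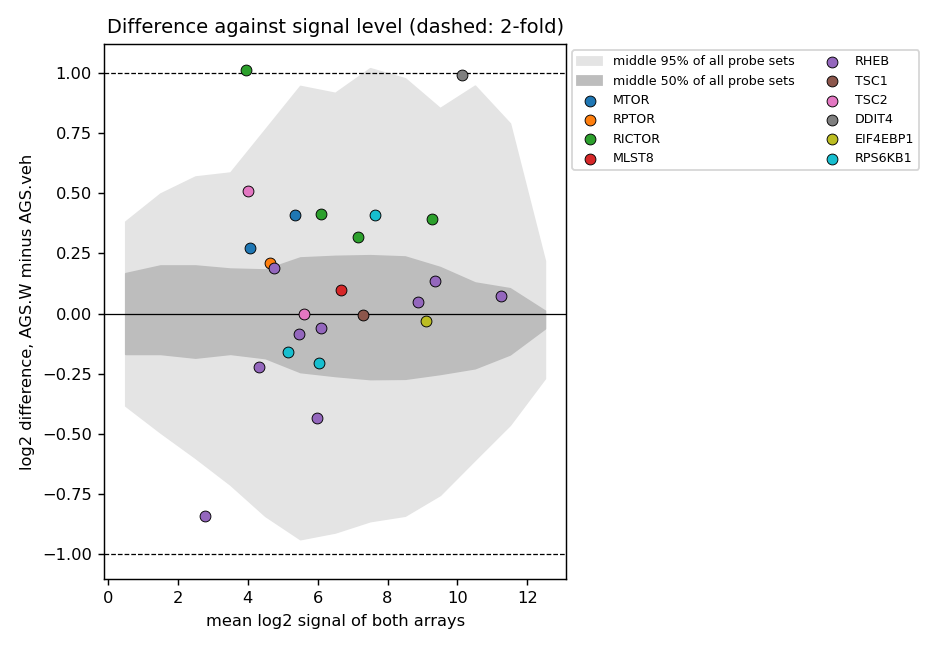
Log2 difference AGS.W minus AGS.veh (vertical axis) against the mean log2 signal of both arrays (horizontal axis) for the 25 probe sets, coloured by gene, over shaded bands that hold the middle 50% and 95% of all probe sets at each signal level, with dashed lines at 2-fold. RICTOR at 1552734_at (1.01), DDIT4 (0.99) and RHEB at 243008_at (-0.84) lie at or beyond the edge of the wider band, and the 4 probe sets of RICTOR and 2 of MTOR lie above 0.

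**Figure D3:**
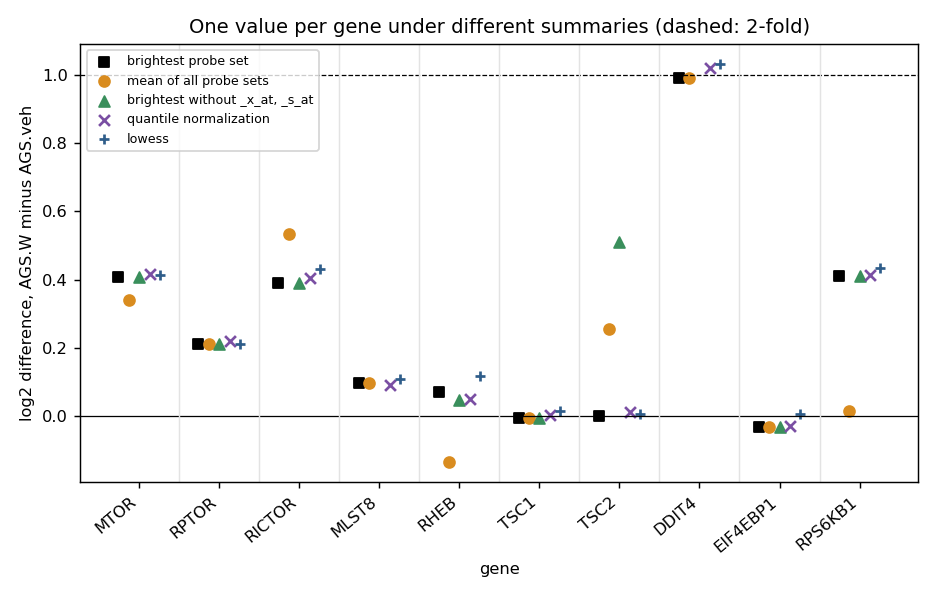
Log2 difference AGS.W minus AGS.veh (vertical axis) of each of the 10 genes (horizontal axis) from its brightest probe set, from the mean of all its probe sets, without _x_at and _s_at probe sets, after quantile normalization and after a lowess curve, with a dashed line at 2-fold. DDIT4 straddles the line between 0.99 and 1.03, RPS6KB1 lies at 0.02 and RHEB at -0.13 when all their probe sets are averaged.

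The paralogs of these genes were read too. RHEBL1, a RHEB-like GTPase, was higher in AGS.W on both of its probe sets. They had 6.46 in AGS.W and 5.89 in AGS.veh on 1553713_a_at, and 5.98 in AGS.W and 5.02 in AGS.veh on 1570253_a_at, with differences of 0.57 and 0.96. The second S6 kinase gene, RPS6KB2, had 6.14 in AGS.W and 6.40 in AGS.veh, a difference of -0.26. EIF4EBP2, the paralog of 4E-BP1, was lower in AGS.W on all 4 of its probe sets that reached the median on at least 1 array. The brightest, 208770_s_at, had 6.45 in AGS.W against 6.65 in AGS.veh, while 224653_at had 5.89 in AGS.W and 6.95 in AGS.veh, which is 2.08-fold lower. Probe sets 224645_at and 208769_at of EIF4EBP2 differed by -0.49 and -0.14. DDIT4L, the paralog of DDIT4, lay below both medians, at 3.07 in AGS.W and 2.74 in AGS.veh. EIF4EBP3 was read by a probe set shared with other genes and was not analysed here.

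The wider pathway was described by 14 gene lists with 202 genes in all, of which 157 had a probe set of their own and passed the signal filter. In these, 71 genes were higher and 82 lower in AGS.W with 4 equal, and the median difference was -0.02. The 53 ribosomal protein genes among them, whose direction depends on the scaling as given below, made up 39 of the lower genes and 13 of the higher. Of the 157 genes 1 was at least 2-fold apart, against 3.78% of all filtered genes. That gene was NDRG1, a stress-induced gene whose protein is phosphorylated by SGK1 below mTOR complex 2 and whose transcript rises in hypoxia, as that of DDIT4 does. NDRG1 had 11.98 in AGS.W and 10.30 in AGS.veh, a difference of 1.68 or 3.21-fold, on its single probe set. SGK1, its kinase, had 10.5 in AGS.W and 9.96 in AGS.veh, a difference of 0.50. Next to MTOR in complex 1, AKT1S1, the inhibitory subunit also called PRAS40, had 4.19 in AGS.W and 4.69 in AGS.veh, a difference of -0.50. In complex 2, PRR5L had 5.68 in AGS.W and 6.61 in AGS.veh, a difference of -0.92, whereas a second of its probe sets had -0.74 and a dim one 0.15.

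Upstream, genes of AMPK, the energy sensor that restrains mTOR complex 1, and of its activating kinase LKB1 had a median difference of 0.23, with 7 of 11 higher and 3 lower in AGS.W, and 0.10 as means over all probe sets of each gene. The gamma subunit gene PRKAG2 had 5.75 in AGS.W and 4.82 in AGS.veh, a difference of 0.93, and the catalytic subunit gene PRKAA2 had 6.77 in AGS.W and 5.89 in AGS.veh, a difference of 0.88. Of their other probe sets above the median on both arrays, those of PRKAG2 had 0.53 and 0.27 and those of PRKAA2 ranged from -0.01 to 0.76. STRADB, a partner of the kinase LKB1, had 5.76 in AGS.W and 6.45 in AGS.veh. Of 10 genes of the Rag GTPases and Ragulator, which bring mTOR complex 1 to the lysosome, 7 were higher, with a median of 0.13, or 0.085 as such means. RRAGC had 8.91 in AGS.W and 8.11 in AGS.veh, a difference of 0.80, and 0.81 on its next probe set. The arginine sensor SLC38A9 had 5.11 in AGS.W and 5.69 in AGS.veh. Of 14 genes of the GATOR complexes and amino acid sensors, 8 were lower and 5 higher, with a median of -0.25. This median was -0.10 both without the signal filter and as means over probe sets. The genes ranged from CASTOR2, an arginine sensor relative, at 6.23 in AGS.W and 7.08 in AGS.veh, to SEC13, a GATOR2 subunit, at 10.6 in AGS.W and 10.1 in AGS.veh.

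Downstream, of 8 genes of the S6 kinases and their substrates, 5 were higher and 3 lower with a median of 0.05, or 0.08 without the signal filter, led by EEF2K, the kinase that inhibits elongation factor EEF2, at 8.22 in AGS.W and 7.50 in AGS.veh. Its second probe set had a difference of 0.80. RPS6, the ribosomal protein that S6 kinases phosphorylate, differed by -0.02, -0.02 and 0.00 on its 3 brightest probe sets but had 7.75 in AGS.W and 6.51 in AGS.veh on 211690_at, a difference of 1.24. Of 9 genes of the 4E-BPs and the cap-binding complex, 7 were lower, with a median of -0.16, or -0.064 as means over probe sets. The lowest, the initiation factor gene EIF4G2, had 10.8 in AGS.W against 11.3 in AGS.veh. The highest was the cap-binding EIF4E3, at 4.90 in AGS.W and 4.25 in AGS.veh. The genes of the kinase complex that starts autophagy, an mTOR complex 1 target, ranged from -0.05 for ATG13 to 0.19 for ULK1. Those of the TFEB family and lysosome had a median of 0.09, between MITF, a relative of TFEB, at -0.55 and the protease gene CTSB at 0.32.

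Transcripts that begin with a terminal oligopyrimidine (TOP) tract, those of ribosomal proteins and several translation factors, are the ones whose translation mTOR complex 1 controls most tightly. Of 78 ribosomal protein genes listed, 53 had a probe set of their own, and all 53 passed the filter. The others had only probe sets shared with other genes, or none. Of the 53, 39 were lower and 13 higher in AGS.W and 1 was equal. Their differences had a median of -0.04. They ran from -0.30 for RPL36A to 0.07 for RPLP1 in the large subunit and from -0.16 for FAU to 0.06 for RPS25 in the small. RPL36A was dim, at 4.46 in AGS.W and 4.76 in AGS.veh. After a lowess curve the median was -0.0011 for large and 0.026 for small subunit proteins, so the direction depends on the scaling. Their median signal was 12.5 in AGS.W against 12.5 in AGS.veh, near the top of the arrays, where the highest signals were 13.1 on both. Over the 184 probe sets of any gene with a mean signal between 12 and 13, 55 of them of ribosomal proteins, the middle 95% of differences ran from -0.27 to 0.22. At signals between 5 and 6 it ran from -0.94 to 0.94, so differences of probe sets were narrower near the top of the scale. The part of this in the small ribosomal differences was not tested. Of 12 other genes listed with such transcripts, not all of them translation factors, 6 were higher and 6 lower with a median of 0.00. The lowest was LARP1, the protein that binds TOP transcripts, at 9.68 in AGS.W and 10.2 in AGS.veh. The differences of its 4 probe sets all lay between -0.65 and -0.23. The highest was HNRNPA1, at 10.7 in AGS.W and 10.4 in AGS.veh, a difference of 0.25. A second probe set of EIF3F, at 3.48 in AGS.W and 4.74 in AGS.veh, differed by -1.26, while the brightest differed by 0.01.

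**Figure D4:**
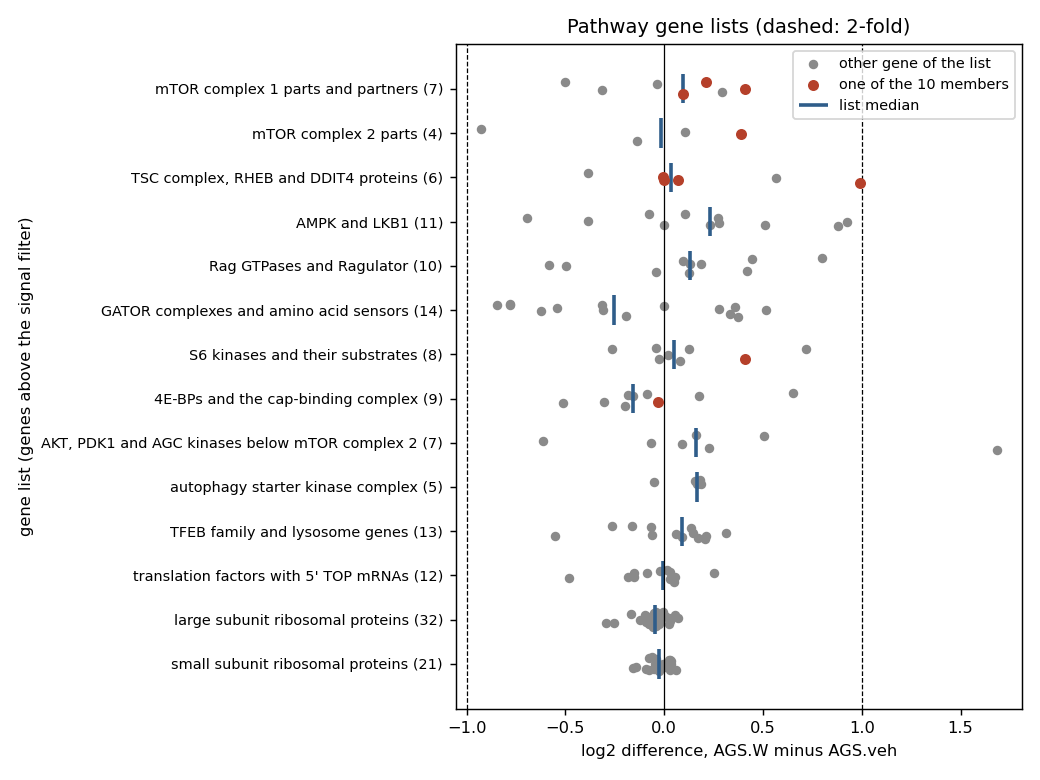
Log2 difference AGS.W minus AGS.veh (horizontal axis) of each gene above the signal filter in the 14 pathway lists (vertical axis, with the number of genes), with the members in red, other genes in grey, list medians as bars and 2-fold as dashed lines. NDRG1 alone lies past 2-fold, DDIT4 lies at the line, and the ribosomal protein genes lie between -0.30 and 0.07, with directions that depend on the scaling.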

How the data were processed

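AGS.W and AGS.veh RNA went onto 1 Affymetrix U133 Plus 2.0 array per line. The table holds deposited log2 values for every probe set, which the authors had normalized between arrays. The submitters' processing notes name RMA and MAS5, and how the background was corrected is not given in the sources used here. That scale was kept. After 62 control probe sets were left out, 54613 remained, of which the platform annotation of 2016 assigned 41091 to 1 gene, 1801 to several and 11721 to none given. Symbols were updated through RefSeq gene identifiers (GRCh38.p14), and 54 probe sets kept an older symbol. Promoter windows and their coordinates came from RefSeq. The members and lists were chosen with earlier results of these data known. Besides all probe sets of the 10 members, each list named its genes past 2-fold, or its highest and lowest, and member paralogs. SGK1, PRKAA2 and the further probe sets of named genes, EIF3F among them, were added after their values were seen. So were MAPKAP1, PRR5, DEPTOR, TTI1, TELO2 and the cell markers. The fold threshold of 2 was that of the study, and its FDR needs replicates. With 1 array per line the number of arrays limits the precision, and nothing was tested between the lines. Scripts were tested on simulated data. Alternatives were median centring, quantile normalization, lowess of span 0.3, folds of 1.5 and 3, signal filters, and a gene value as the mean of its probe sets or without _x_at and _s_at types. A planned offset before log2 did not apply. Computation used Python 3.11.15 (pandas 2.3.3, numpy 2.4.6, statsmodels 0.14.6) and matplotlib 3.10.9 for plots.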

Additional observations from a re-analysis of the deposited data

How the results depend on the processing

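No paired analysis was possible because AGS.W and AGS.veh had a single array apiece, which also leaves no replicate to drop. A gene value was taken to move when it shifted by more than the robust spread of differences at its signal level, and a list median when it shifted by more than the robust spread of its genes over the root of their number. For the 10 genes, 46 of 48 values under alternatives lay inside that spread and 4 changed sign, all of them differences near 0 (RHEB, TSC1 and EIF4EBP1). The exceptions were TSC2 at 0.51 without _x_at and _s_at probe sets and RPS6KB1 at 0.015 as the mean of its probe sets. DDIT4 and MLST8 have only probe sets of these types, so that setting could not be run for them. The number of member probe sets at least 2-fold apart, 1 of 25, was 3 at 1.5-fold, 0 at 3-fold, 2 after quantile normalization or lowess, with DDIT4 added, and 0 where both signals had to reach the median, a setting chosen after seeing the data. Without _x_at and _s_at types the median over member probe sets was 0.21. Of the pathway genes, 1 was at least 2-fold apart, 2 after quantile normalization or lowess, 3 without those types (RPS6 and EIF3F on dimmer probe sets, and EIF4EBP2 2.08-fold lower, but not NDRG1) and 14 at 1.5-fold, the last pair of settings chosen after seeing the data. List medians stayed within their spread in 73 of 84 values, among them that of the GATOR complexes and sensors at -0.10 without the signal filter and as means over probe sets. As means over probe sets they were -0.28 for mTOR complex 2 without MTOR and MLST8, 0.10 for AMPK and -0.064 for the cap-binding complex. They were 0.13 for the autophagy kinase complex, -0.061 for the other genes with TOP transcripts, -0.071 for large and -0.046 for small ribosomal subunits. After lowess they were 0.19, 0.041, -0.0011 and 0.026 for the last 4 of these, in that order. No scaling moved a member probe set by more than 0.05, and the median difference of all probe sets was -0.014 after lowess and 0 after the other scalings. Signal over background limits the dim readings of RICTOR, RHEB, TSC2 and MTOR.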
